A study of Rattus norvegicus with 4 samples.

Results

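The genes described here were measured above the dim range and stood moderately higher in the telencephalon of rat embryos that lack working Pax6. They were chosen by their values: a probe set, the group of short array probes that reports 1 transcript, needed a single gene symbol and a mean of at least 6 on the log2 scale in the mutant arrays. It also needed a value at least 0.4 higher in each mutant array than in each wild-type array, in all 4 pairings, which is 1.32-fold. These limits were met by 47 of 11369 probe sets with 1 symbol and a mutant mean of at least 6 (0.413%). Leaving out 6 of them by symbol (Alas2, Nkx2-1, Ntn1, Kcne3, Dlx1 and Eif2s3y) gave 41 probe sets of 39 genes, out of 14217 named genes in all. The same measured difference chose the members, so their differences are a description and no test of them is given.

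Gene expression was compared between genotypes at E11.5, with embryonic days counted from the vaginal plug, both on the Sprague-Dawley background: homozygous Pax6 mutant embryos (rSey2/rSey2) with 2 arrays, and wild-type embryos with 2 arrays. Each array carried labelled RNA of the dissected telencephalon, the front part of the embryonic forebrain. The design text gives 13 telencephalons and a repeat per genotype, so an array stands for pooled embryos of unstated sex, and it does not say whether each array had its own 13. The mutation is carried by every cell of the embryo and not by the forebrain alone. Nothing in the labels names litters, so the gap between arrays of a genotype may be partly technical.

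Pax6 is a paired-box and homeobox transcription factor of the dorsal forebrain and eye. In the early telencephalon it holds progenitors to a dorsal fate and sets the balance between dividing again and becoming a neuron.

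The members lay at a median of 7.69 and 7.73 in the mutant arrays, against 7.01 and 7.19 in the wild-type arrays (log2, n = 39 genes). Among probe sets with a mutant mean of at least 6, called bright here, the medians were 9.11 and 9.22 in the mutant and 9.14 and 9.20 in wild type, so the members sit in the lower part of that range, and 5 had a wild-type mean under 6. The median difference, mutant minus wild type, was 0.70 on the log2 scale, a 1.62-fold difference, while the median over all 11369 bright probe sets was -0.002. The smallest difference of means was 0.46 (Plxnd1) and the largest was 1.31 (Abcg5). A difference under 0.6 was found for 9 genes, 0.6 to under 0.8 for 20 and at least 0.8 for 10. By the means 2 genes reached 2-fold, and 0 reached it in all 4 pairings. Of the 39, 11 genes had a mutant mean under 7, 22 lay from 7 to under 9, 2 lay from 9 to under 10 and 4 were at 10 or above. The other direction, lower by at least 0.4 in all 4 pairings with a wild-type mean of at least 6, was met by 64 of 11396 probe sets (0.562%).

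**Figure D1:**
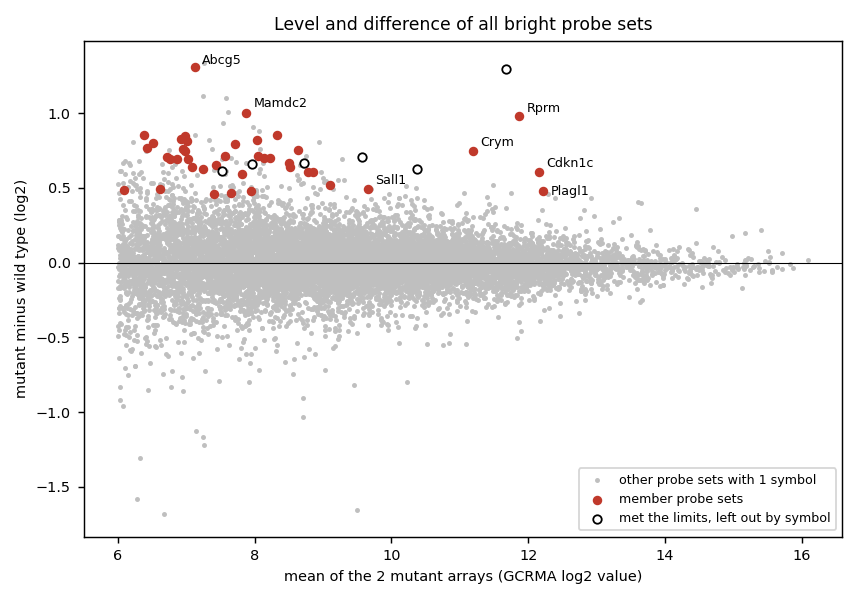
Mean of the mutant arrays (x axis, GCRMA log2 value) against mutant minus wild type (y axis, log2) for all probe sets with 1 symbol and a mutant mean of at least 6; red points are the 41 member probe sets and open circles the 6 left out by symbol. Most members lie between 6 and 9 on the x axis, and Rprm, Cdkn1c, Plagl1 and Crym stand apart at the bright end.

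Promoter sequences of 5 members are shown because they carry the letters that the values below refer to: Rprm and Plagl1 are among the brightest members, Abcg5 has the largest difference, and Klf1 and Rhd belong to red cells. Each run is the 250 bases before the RefSeq transcript start, read 5′ to 3′ on the gene's own strand (build GRCr8). Capitals mark the GC box GGGCGG, the CCAAT box, the TATA box with its letters TATAAA and the GATA-factor box with its letters GATAA, each on either strand.
Rprm promoter, chr3:58950036-58950285, minus strand: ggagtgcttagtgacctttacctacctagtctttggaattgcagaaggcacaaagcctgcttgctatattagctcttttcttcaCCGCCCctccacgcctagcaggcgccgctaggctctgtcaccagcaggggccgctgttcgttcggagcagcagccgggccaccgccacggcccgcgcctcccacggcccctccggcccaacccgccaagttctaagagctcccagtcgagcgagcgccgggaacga
Plagl1 promoter, chr1:9297214-9297463, plus strand: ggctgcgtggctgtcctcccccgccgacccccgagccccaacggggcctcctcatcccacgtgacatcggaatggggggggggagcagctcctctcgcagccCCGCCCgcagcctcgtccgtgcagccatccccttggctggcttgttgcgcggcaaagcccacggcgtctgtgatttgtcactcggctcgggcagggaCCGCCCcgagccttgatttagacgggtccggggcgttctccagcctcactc
Abcg5 promoter, chr6:15717686-15717935, plus strand: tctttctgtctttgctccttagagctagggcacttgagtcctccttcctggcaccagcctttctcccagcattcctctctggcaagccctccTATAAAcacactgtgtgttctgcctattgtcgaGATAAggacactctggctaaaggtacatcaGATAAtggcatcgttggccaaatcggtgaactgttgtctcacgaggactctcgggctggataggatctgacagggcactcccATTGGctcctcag
Klf1 promoter, chr19:40158652-40158901, minus strand: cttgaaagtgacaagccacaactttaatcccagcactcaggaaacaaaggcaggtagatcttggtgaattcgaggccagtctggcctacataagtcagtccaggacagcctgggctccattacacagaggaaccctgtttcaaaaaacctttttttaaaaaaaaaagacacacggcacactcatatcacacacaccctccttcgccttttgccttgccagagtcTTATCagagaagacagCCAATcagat
Rhd promoter, chr5:152370950-152371199, plus strand: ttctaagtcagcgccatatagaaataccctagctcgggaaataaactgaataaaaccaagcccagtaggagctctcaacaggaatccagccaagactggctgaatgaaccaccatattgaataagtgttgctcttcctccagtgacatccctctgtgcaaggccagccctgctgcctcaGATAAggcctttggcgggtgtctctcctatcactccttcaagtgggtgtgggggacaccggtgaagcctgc
The Rprm and Plagl1 windows hold GC boxes and no GATAA. Klf1 has GATAA on the opposite strand, starting 26 bases before the transcript start, with CCAAT next to it, and Rhd has GATAA 71 bases before the start. Abcg5 has GATAA at 125 and at 95 bases before its start. Those distances count from the first base of the match as printed.

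The RefSeq table held a promoter of 300 bases, 250 before and 50 after the start, for 33 of the 39 members; Cdkn1c, Crym, Ldb2, Nrcam, Nsd3 and Sall1 had none there. Over those 33 the median GC content was 65.3%, against 61.7% over 7007 promoters of genes with a mutant mean of at least 6 and 55.3% over all 18999 protein-coding promoters. The median number of CpG steps was 21 in members, 22 in the promoters of bright genes and 12 over all. A GC box (GGGCGG, both strands) was found in 72.7% of members, 66.0% of bright genes and 43.1% of all. CCAAT was found in 36.4% of members, 39.2% of bright genes and 38.4% of all, and CANNTG, the E-box bound by proneural factors, in 60.6%, 59.8% and 69.1%. GATAA was found in 9 of 33 members (27.3%), 15.2% of bright genes and 23.6% of all. This motif was added after the members were seen. The members with GATAA were Klf1, Rhd, Abcg5, Aff2, Dact1, Gse1, Kiaa0408L, Mamdc2 and Rgs16. Hemgn and Fam210b, which are grouped with Klf1 and Rhd as red cell genes below, had 0 matches. TATAAA was found in 3 members (9.09%), 5.78% of bright genes and 13.1% of all. The letters TTCACGC, the core of the site read by the Pax6 paired domain, were in 0 of the 33 windows, against 1.94% of bright genes and 1.38% of all. The palindrome that paired homeodomains bind (a pair of TAAT cores facing each other, with 3 free bases between them) was likewise in 0 of 33, against 0.0856% and 0.358%. CANNTG and GATAA matches could overlap other motifs. Both Pax6 patterns are rare in any promoter window of this length, and a window without them says nothing of Pax6 binding elsewhere.

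Genes that restrain growth or act in cell division included the brightest members. Plagl1, a zinc-finger transcription factor that is imprinted in mouse and human and slows the cell cycle, had 12.23 and 12.22 in mutant arrays, against 11.71 and 11.77 in wild-type arrays. Its difference of 0.48 is among the smaller ones, and the gap between arrays of a genotype was 0.06 or less. Cdkn1c, an inhibitor of cyclin-dependent kinases that is imprinted as well, had 12.21 and 12.11 in the mutant and 11.40 and 11.71 in wild type. Here the wild-type arrays differed by 0.30, so that the difference of 0.61 came with a smallest pairing of 0.41. Rprm, which encodes Reprimo, an inducer of cell cycle arrest downstream of p53, had 11.69 and 12.05 in the mutant, against 10.79 and 10.99 in wild type. Its difference was 0.98, the third largest of the set, with SDs of 0.25 in the mutant and 0.15 in wild type (n = 2 each).

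Ptpn14, a tyrosine phosphatase that holds back the growth-promoting factor YAP, had 8.53 and 8.48 in the mutant and 7.83 and 7.86 in wild type. The difference was 0.66 with array gaps of 0.05 or less in this probe set; 2 dimmer probe sets of Ptpn14, given further on, differed little or not at all. Ttc28, a large tetratricopeptide-repeat protein that acts late in cell division, had 6.67 and 6.57 in mutant arrays and 6.13 in both wild-type arrays. The wild-type values of Ttc28 were identical (SD 0). Whether this tie marks a background value or close replicates was not tested. No overlap between the genotypes was seen in any of these 5 genes, which the rule itself requires.

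The list of other cell cycle regulators (cyclins, kinases, inhibitors and replication genes) did not show the same direction. Of 27 tested genes besides Cdkn1c, 11 were higher and 15 lower in the mutant, with a median difference of -0.008, beside a median of 0 over 9840 tested genes. In limma 0 of the 27 passed an adjusted p of 0.05, as 0 of 18625 probe sets did over the whole table (680 at an unadjusted p under 0.05). The 2 largest changes among them were Cdc25b, a phosphatase that activates mitotic kinases, at 0.44 (SE 0.32), and Ccnd1, cyclin D, at 0.43 (SE 0.20), both with a limma adjusted p of 1.

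Transcription and chromatin factors formed the largest role group with 7 genes, at a median difference of 0.71. Sall1, a zinc-finger factor of progenitors in brain, kidney and limb, had 9.63 and 9.68 in mutant arrays, against 9.18 and 9.14 in wild-type arrays. The Sall1 gap between arrays was 0.05 in the mutant and 0.04 in wild type, beside a genotype difference of 0.49. Gse1, a coiled-coil protein found with histone deacetylase complexes, had 8.01 and 8.25 in the mutant and 7.38 and 7.48 in wild type. Aff2, a nuclear protein of the AF4/FMR2 family, had 8.003 and 8.09 in the mutant and 7.12 and 7.54 in wild type. Aff2 lies on the X chromosome, and its wild-type arrays were 0.42 apart.

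Nsd3, a histone methyltransferase, had 7.69 and 7.63 in mutant arrays, against 7.195 and 7.191 in wild-type arrays. Creb5, a leucine-zipper factor of the CREB family, had 7.04 and 6.97 in the mutant and 6.30 and 6.08 in wild type, a difference of 0.81. Ldb2, a cofactor that links LIM-domain transcription factors, had 6.91 and 6.98 in the mutant and 6.43 and 5.94 in wild type. For Ldb2 the 2 mutant arrays were close and the 2 wild-type arrays were 0.49 apart. Bcl11a, a zinc-finger repressor known both in neurons and in blood cells, where it silences fetal globin in human, had 6.65 and 6.12 in the mutant and 5.47 and 5.60 in wild type. It is the dimmest of the group, and its mutant arrays were 0.54 apart. Among 31 tested chromatin modifiers of a separate list, none of which is a member, 25 were higher and 6 lower. Over 9840 tested genes 49.7% were higher. In 9 of the 31 both mutant arrays lay above both wild-type arrays, beside 12.2% of tested genes. The median difference of the 31 was 0.09, and 0 passed in limma (0 at an unadjusted p under 0.05). The 2 largest changes there were those of Arid1b, a remodeller subunit (0.31, SE 0.56), and Ep300, a histone acetyltransferase (0.29, SE 0.18), both with a limma adjusted p of 1.

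Surface proteins of cell contact and axon guidance gave 5 members. Plxnc1, a semaphorin receptor, was a member through both of its probe sets. The brighter one had 8.17 and 8.49 in mutant arrays, against 7.30 and 7.65 in wild-type arrays, a difference of 0.85. The second had 7.42 and 7.70 in the mutant and 6.81 and 6.90 in wild type. Both probe sets thus gave the same order of arrays. Plxnd1, a semaphorin receptor of vessels and neurons, had 7.41 in each mutant array, against 7.01 and 6.89 in wild type, just inside the limit with a smallest pairing of 0.40. Nrcam, an immunoglobulin-type adhesion molecule of axons, had 7.22 and 6.95 in the mutant and 6.44 and 6.45 in wild type. Fat4, a giant atypical cadherin that limits growth of cortical progenitors in mouse, had 8.85 and 8.70 in the mutant and 8.12 and 8.21 in wild type. Smagp, a small membrane glycoprotein of cell junctions, had 7.41 and 7.45 in the mutant and 6.98 and 6.58 in wild type. In Nrcam and Fat4 mutant replicate 1 was the highest array, and in Plxnc1 it was mutant replicate 2.

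Beside Nrcam and Plxnd1, 23 other axon guidance and cell contact genes were tested. Of these 15 were higher and 8 lower, with a median difference of 0.08, and 0 passed in limma (3 at an unadjusted p under 0.05). In 6 of the 23 both mutant arrays lay above both wild-type arrays, which 12.2% of 9840 tested genes did. Robo3, an axon guidance receptor, had the largest change at 1.04 (SE 0.09; limma adjusted p = 0.967), with wild-type values of 2.997 and 3.03, under 3.21, the dim level that a probe set's mean over the 4 arrays had to reach to be tested. Ephb1, an Eph receptor, differed by 0.58 (SE 0.26; limma adjusted p = 1).

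**Figure D2:**
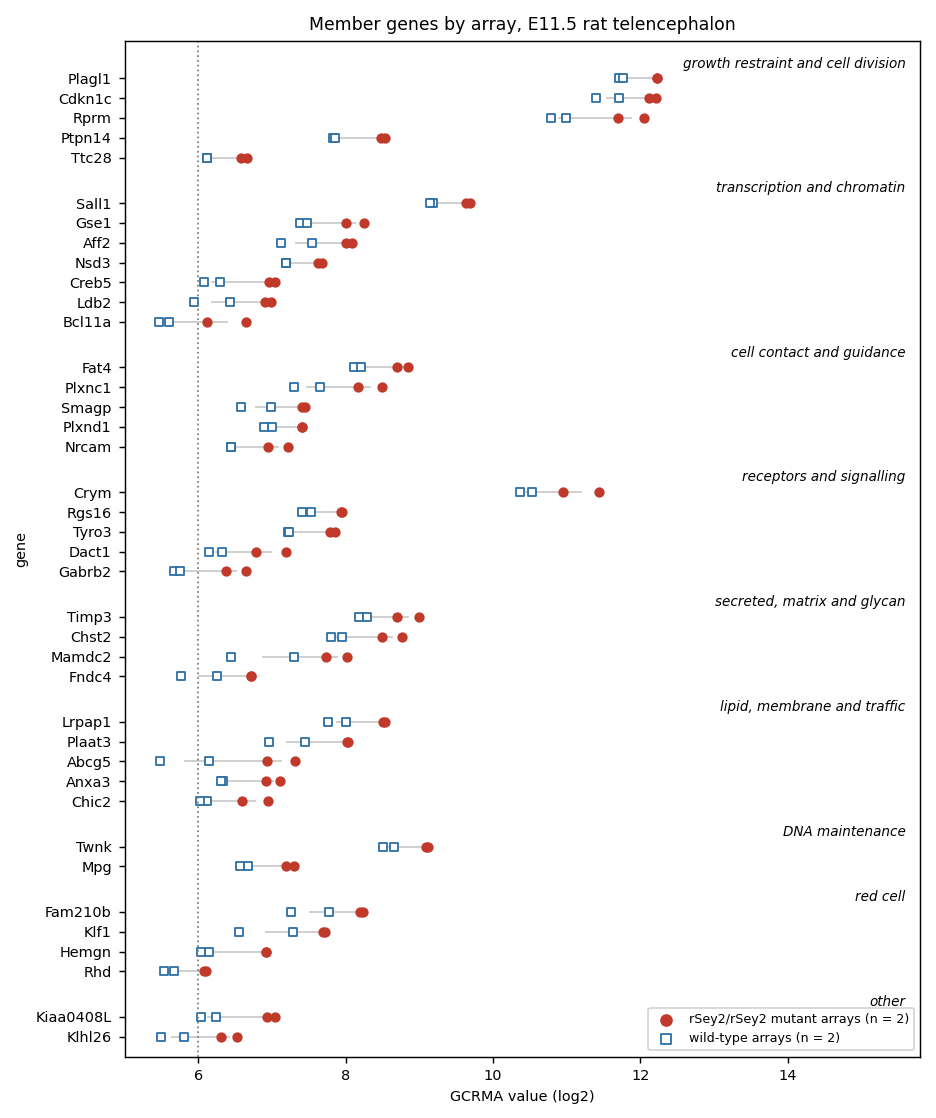
GCRMA value (x axis, log2) of each member gene (rows, grouped by role) in each array; red circles are the mutant arrays, blue open squares the wild-type arrays, the grey line joins the means and the dotted line marks the level of 6. In every row both mutant arrays lie to the right of both wild-type arrays, as the rule requires, and wild-type pairs are wide apart in Mamdc2, Klf1 and Abcg5.

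Receptors and signalling proteins gave 5 members at a median difference of 0.75. Crym, a cytosolic protein that binds thyroid hormone, was the brightest of them with 10.94 and 11.44 in mutant arrays, against 10.53 and 10.36 in wild-type arrays. The difference of 0.75 was 0.50 without mutant replicate 2. Tyro3, a receptor tyrosine kinase of the TAM family, expressed in the nervous system, had 7.79 and 7.85 in the mutant and 7.22 and 7.23 in wild type. The gap between Tyro3 arrays was 0.06 in the mutant and 0.01 in wild type. Dact1, an antagonist of Dishevelled in Wnt signalling, had 6.78 and 7.19 in the mutant and 6.15 and 6.32 in wild type. Gabrb2, a subunit of the GABA-A receptor, had 6.38 and 6.65 in the mutant and 5.68 and 5.75 in wild type. Rgs16, which shortens signals from G-protein-coupled receptors, had 7.94 and 7.96 in the mutant, against 7.402 and 7.53 in wild type. In all 5 of these genes mutant replicate 2 was the highest array.

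Other genes of these pathways were read beside them. Besides Rgs16, 18 G-protein signalling regulators were tested, of which 11 were higher and 6 lower with a median difference of 0.04. The Notch and proneural list also holds Rgs16, and 24 other genes of it were tested, of which 16 were higher and 7 lower with a median of 0.06. Around Dact1, 28 Wnt and BMP genes were tested, of which 10 were higher and 18 lower with a median of -0.07. The 2 largest changes were lower in the mutant and larger in size than that of any member. The ligand gene Wnt7a had 2.74 in each mutant array, against 4.32 and 5.87 in wild-type arrays (-2.35, SE 0.61, limma adjusted p = 1). Its mutant values lay under the dim level of 3.21, so the size of its change is uncertain. Dkk3, of the Dickkopf family of Wnt modulators, had 5.91 and 5.68 in the mutant and 7.36 and 7.35 in wild type (-1.56, SE 0.11, limma adjusted p = 0.967). In the Notch and proneural list the 2 largest changes were Dcx, a microtubule protein of young neurons (0.51, SE 0.12), and Elavl2, a neuronal RNA-binding protein (-0.42, SE 0.16), both with a limma adjusted p of 1. In these 3 lists limma passed 0 genes, with 1, 1 and 5 at an unadjusted p under 0.05. Both mutant arrays lay below both wild-type arrays in 9 of the 28 Wnt and BMP genes, which 12.1% of tested genes did.

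Secreted, matrix and glycan genes gave 4 members. Timp3, an inhibitor of metalloproteinases that binds to matrix, had 8.70 and 8.997 in mutant arrays, against 8.18 and 8.29 in wild-type arrays. Chst2, a sulfotransferase that modifies glycans, had 8.50 and 8.76 in the mutant and 7.80 and 7.96 in wild type. Mamdc2, a secreted protein with MAM domains, had 7.74 and 8.02 in the mutant and 7.30 and 6.45 in wild type. The Mamdc2 difference of 1.002 is the second largest of the set, and it was 0.58 without wild-type replicate 2. Fndc4, a secreted fibronectin type III protein, had 6.72 and 6.71 in the mutant and 5.76 and 6.26 in wild type; its difference of 0.71 was 0.46 without wild-type replicate 1. Among 24 other extracellular matrix genes 18 were higher and 5 lower, with a median of 0.10. In 8 of the 24 both mutant arrays were above both wild-type arrays, beside 12.2% of 9840 tested genes, and 0 passed in limma (2 at an unadjusted p under 0.05). Spon1, which encodes a matrix protein of the floor plate, differed by 0.54 (SE 0.36) and the laminin chain Lama4 by 0.41 (SE 0.13), both with a limma adjusted p of 1.

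Lipid, membrane and traffic genes gave 5 members and the largest difference. Abcg5, a half-transporter that exports sterols in liver and gut, had 6.94 and 7.31 in mutant arrays, against 5.49 and 6.15 in wild-type arrays. The difference of 1.31 (2.48-fold) came with SDs of 0.27 and 0.47 (mutant and wild type, n = 2 each), and the wild-type mean of 5.82 lay under the level of 6. Plaat3, a phospholipase and acyltransferase, had 8.04 and 8.02 in the mutant and 6.96 and 7.45 in wild type. Anxa3, an annexin that binds membranes with calcium, had 7.11 and 6.92 in the mutant and 6.34 and 6.31 in wild type. Lrpap1, the chaperone of LDL-receptor family proteins, had 8.53 and 8.51 in the mutant and 8.003 and 7.76 in wild type. Chic2, a palmitoylated protein of vesicle membranes, had 6.59 and 6.94 in the mutant and 6.12 and 6.02 in wild type. The wild-type pair of Plaat3 was 0.49 apart while its mutant pair was 0.01 apart.

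DNA maintenance genes and genes without a shared role gave 4 members. Twnk, the helicase of mitochondrial DNA, had 9.12 and 9.09 in mutant arrays, against 8.51 and 8.66 in wild-type arrays. Mpg, a glycosylase that removes alkylated bases from DNA, had 7.30 and 7.19 in the mutant and 6.56 and 6.68 in wild type. In the RefSeq gene order Mpg lies 2 protein-coding genes from the embryonic alpha-type globin Hbz and 3 from Hba-a1. No member lay within 5 protein-coding genes of another. Klhl26, of the kelch-like family of ubiquitin ligase adaptors, had 6.31 and 6.53 in the mutant and 5.50 and 5.80 in wild type. Kiaa0408L, whose role is not described here, was a member through both of its probe sets, with 6.93 and 7.04 in the mutant and 6.24 and 6.03 in wild type for the brighter one. The second Kiaa0408L probe set had 6.65 and 7.09 in the mutant and 6.25 and 6.10 in wild type, the member nearest to the limit.

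Genes assigned to a red cell role made up 4 members. Hemgn and Klf1 are also on the red cell marker list, and Rhd and Fam210b are not. Which cells of the pooled tissue expressed them was not measured. Hemgn, a nuclear protein of red cell precursors, had 6.91 in each mutant array, against 6.03 and 6.15 in wild-type arrays. Its smallest pairing, 0.77, was the second largest of the set. Klf1, the master transcription factor of red cells, had 7.69 and 7.73 in the mutant and 6.55 and 7.29 in wild type; its difference of 0.79 was 0.42 without wild-type replicate 1. Rhd, a Rh blood group protein of the red cell membrane, had 6.10 and 6.08 in the mutant and 5.67 and 5.54 in wild type. Fam210b, a mitochondrial protein of red cell maturation, had 8.20 and 8.23 in the mutant and 7.78 and 7.26 in wild type; its difference of 0.70 was 0.44 without wild-type replicate 2. All 4 were close between mutant arrays, with gaps from 0.0003 to 0.0338, and lay further apart between wild-type arrays. In pooled tissue more cells of a type and more RNA per cell cannot be told apart.

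Other red cell markers were read beside these members, leaving out Hemgn, Klf1 and Alas2, which met the limits themselves. Of the 15 other tested markers, 13 were higher and 2 lower in the mutant, where 49.7% of 9840 tested genes were higher. Their median difference was 0.20, and 8 had both mutant arrays above both wild-type arrays, beside 12.2% of tested genes. The 2 lower ones, named after their values were seen, were the transferrin receptor Tfrc (-0.03) and the erythropoietin receptor Epor (-0.13). The summed level of the 15 markers on the linear scale was 127303 and 124656 in mutant arrays, against 110705 and 111094 in wild-type arrays. Of the 19 list genes on the array, 0 were at the lowest value of the table and 1, Epb42, was dim. The sum rests on the embryonic globins, such as Hbe1 with 15.40 and 15.41 in the mutant and 15.22 and 15.16 in wild type. Globin genes are near copies of each other, so their probe sets may share signal. As differences on the log2 scale, Hbe1 was at 0.22 and Hbz at 0.18, while Hemgn was at 0.83 and Klf1 at 0.79. These globins lie near the highest value of all probe sets, 16.13, and whether differences are read in full there was not tested. In limma 0 of the 15 passed (3 at an unadjusted p under 0.05). The part of red cells in the higher values of the other 35 members was not tested.

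**Figure D3:**
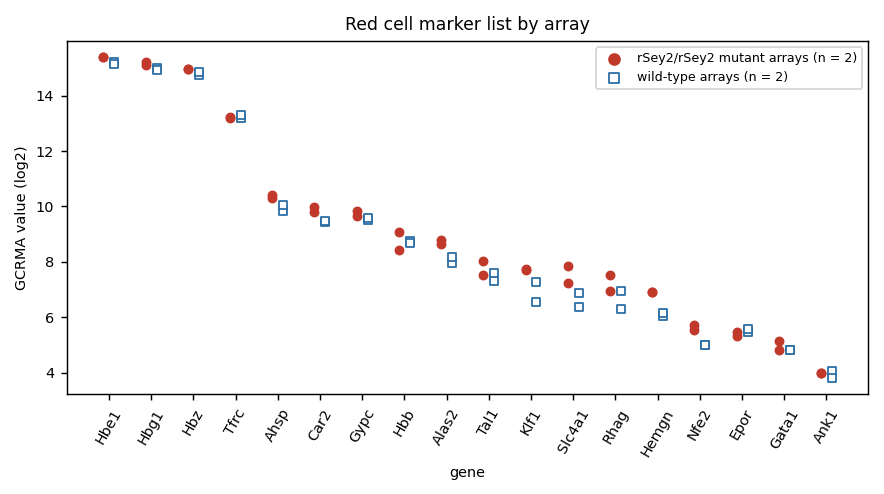
GCRMA value (y axis, log2) of the 18 tested red cell markers (x axis) in each array, with mutant arrays as red circles and wild-type arrays as blue open squares. The bright globins differ little between genotypes, and Klf1, Slc4a1, Hemgn and Nfe2 lie apart in the range from 5 to 8.

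Markers of other neighbouring cells were summed in the same way. Of 19 endothelial genes, 17 were above and 2 below wild type by their means (median 0.15), where 49.7% of 9840 tested genes were higher. In 6 of the 19 both mutant arrays lay above both wild-type arrays, beside 12.2% of tested genes. The summed linear level of the 19 was 5382 and 6297 in mutant arrays, against 4940 and 5080 in wild-type arrays. Mesenchyme and neural crest markers were higher in 7 and lower in 8 of 15 cases, with a summed level of 8179 and 9428 in the mutant and 9914 and 9705 in wild type. In 2 of these 15 both mutant arrays lay above both wild-type arrays and in 5 below, beside 12.2% and 12.1% of tested genes. Macrophage markers were dim in 11 of 13 cases, among them Csf1r, Cx3cr1 and Ptprc. Surface ectoderm markers were higher in 3 and lower in 4 of 8 cases, with a summed level of 523 and 537 in the mutant and 634 and 534 in wild type, and the keratin Krt14 lay at the lowest value in all arrays. In these 4 lists 0 genes passed in limma, with 2, 1, 0 and 3 at an unadjusted p under 0.05. Members that vessels are also known to express, such as Plxnd1, Ldb2 and Timp3, stood beside these endothelial values, whose part in them was not tested.

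Forebrain markers were above the dim level on average in both genotypes, but 1 of them was far lower in the mutant. Fabp7, which encodes a lipid carrier of radial glia and their precursors, had 4.89 and 4.56 in mutant arrays, against 11.83 and 12.15 in wild-type arrays, a difference of -7.26 (SE 0.19; limma adjusted p = 0.196). Of the 18 tested markers of forebrain neuroepithelium, 12 were higher and 6 lower in the mutant (median 0.03). In 5 both mutant arrays lay above both wild-type arrays and in 2 below, beside 12.2% and 12.1% of tested genes. Their summed linear level was 71551 and 68251 in mutant arrays, against 69451 and 68556 in wild-type arrays. That sum includes Fabp7 with its lower mutant values. Sox2 had a mean of 13.78 in the mutant and 13.56 in wild type, and Lhx2 had 13.33 in the mutant and 13.03 in wild type. Markers of the ventral telencephalon, a region that expands when Pax6 is lost in mouse, were higher in 7 of 9 (median 0.20), but 2 of those, Nkx2-1 and Dlx1, met the limits themselves and were left out by symbol. Without them 5 of 7 were higher (median 0.18), with a summed level of 797 and 1007 in the mutant and 735 and 843 in wild type. In limma 0 genes of either list passed. An unadjusted p under 0.05 was found for 1 forebrain gene (Fabp7) and for 0 of the 7 ventral genes left without Nkx2-1 and Dlx1. Nkx2-1 and Dlx1 were under it as well, which the limits they met make likely. Sex-linked genes also differed between arrays. Eif2s3y, on the Y chromosome, had 11.80 and 11.53 in mutant arrays and 11.02 and 9.73 in wild-type arrays, and Xist, expressed from the inactive X of females, had 12.02 and 11.77 in the mutant and 11.97 and 12.73 in wild type. Wild-type replicate 2 was thus the lowest array for the Y-linked gene and the highest for Xist. The Y-linked gene Uty had 10.59 and 9.73 in the mutant and 10.26 and 9.80 in wild type, with overlap. The part of embryo sex in the members was not tested.

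The gaps between replicates were set beside those of bright genes in general. The median gap between arrays of a genotype was 0.09 in the mutant and 0.15 in wild type for members, against 0.20 and 0.15 over all 11369 bright probe sets; the rule favours small gaps. Both gaps were under 0.2 for 14 of 39 members. A gap of at least 0.4 was found for 9 members in wild type and 3 in the mutant. Replicate 2 was above replicate 1 in the mutant for 22 of 39 members (56.4%), beside 63.0% of all bright probe sets, and in wild type for 24 of 39 (61.5%), beside 63.3%. Since the rule sets all 4 pairings at 0.4 or more, no difference can fall under 0.4 when any 1 array is left out. The difference shrank by over 1.5 times for Crym, Klf1, Fndc4, Fam210b and Mamdc2, with the values given above.

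**Figure D4:**
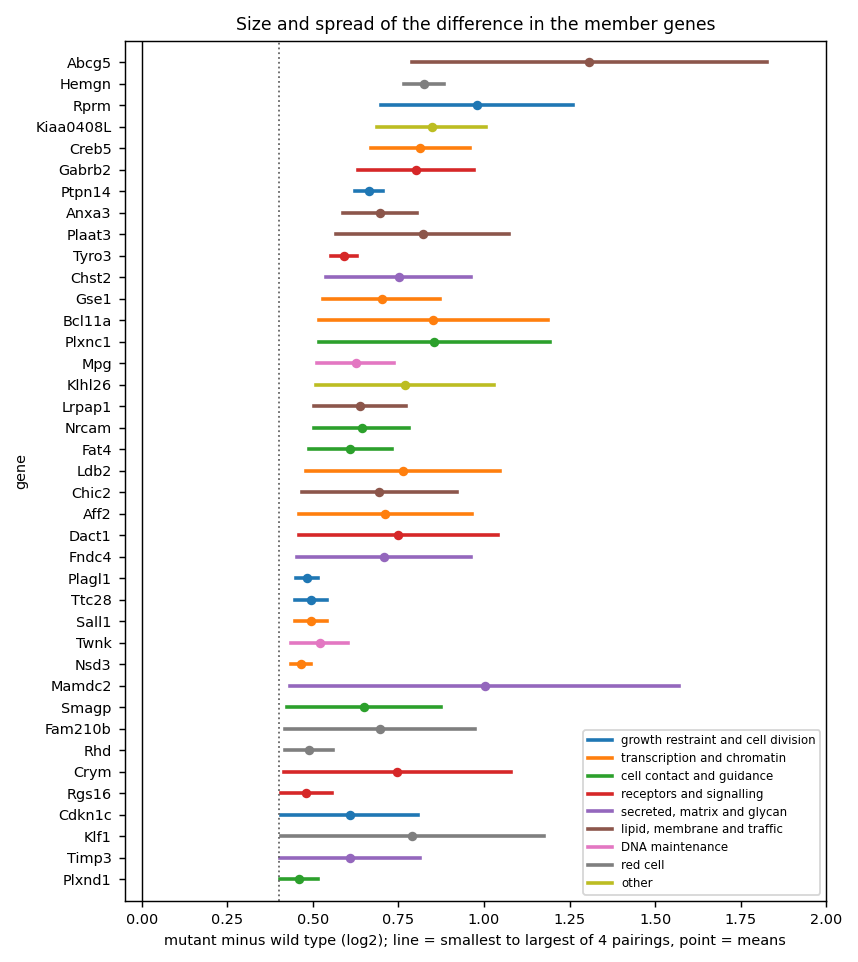
Mutant minus wild type (x axis, log2) for each member gene (rows, sorted by the smallest pairing); points are differences of means, lines run from the smallest to the largest of the 4 pairings, colours show roles and the dotted line marks 0.4. Short lines, as in Ptpn14, Tyro3, Nsd3 and Plagl1, mark genes with close replicates, and Abcg5 and Mamdc2 have the longest.

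Other probe sets of the same genes give a second reading of the same arrays. There were 32 of them for 14 members, of which 8 were dim and 24, for 11 genes, were not. Of these 24, 21 were higher and 2 lower in the mutant by their means, with a median difference of 0.33, and 12 had both mutant arrays above both wild-type arrays, beside 11.1% of 13899 tested probe sets with 1 symbol. They share arrays and RNA with the members and are no independent sample. In 4 genes, Timp3, Nrcam, Dact1 and Gse1, every further probe set above the dim level kept the genotypes apart: Timp3 had 0.75, 0.51 and 0.23, Nrcam had 0.97 and 0.60, Dact1 had 0.61 and Gse1 had 0.33. In the other 7 at least 1 further probe set overlapped between genotypes or was lower. Creb5 had 0.60, 0.55 and 0.46, of which the last 2 overlapped, and Bcl11a had 0.56 with overlap. Ptpn14 had 0.53 in a bright probe set without overlap, but 0.14 with overlap and 0 in 2 dimmer ones with mutant means of 4.18 and 3.76. Ttc28 had 0.36, 0.33 and 0.06, the last with overlap. Nsd3 had 5 further probe sets between -0.23 and 0.32, the brightest of them at 8.76 and 9.09 in mutant arrays and 8.77 and 8.87 in wild-type arrays. Lrpap1 had a brighter one at -0.10, and Twnk a dimmer one at 0.03. The 0.47 of Nsd3, 0.64 of Lrpap1 and 0.52 of Twnk are thus values of 1 probe set each.

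**Figure D5:**
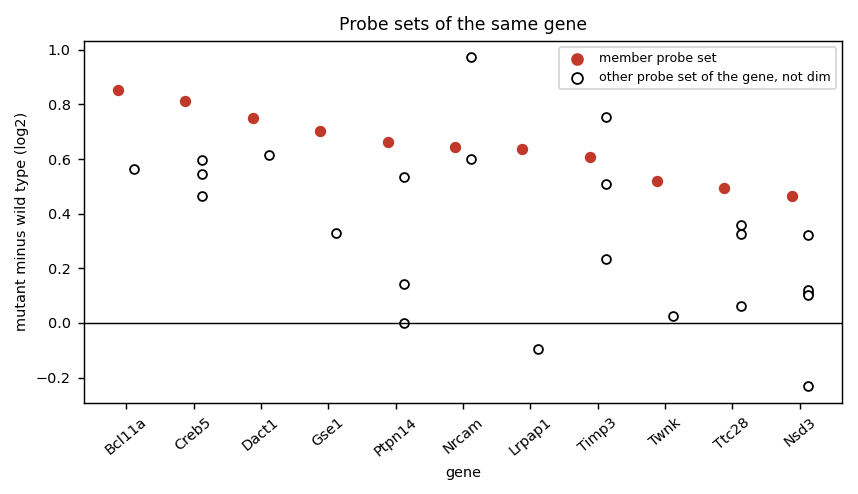
Mutant minus wild type (y axis, log2) for the 11 member genes (x axis) that have another probe set that is not dim; red circles are member probe sets and open circles the others. Lrpap1 and Nsd3 have circles on both sides of 0, Ptpn14, Ttc28 and Twnk have an open circle at or near 0, and the open circles of Bcl11a, Creb5, Dact1, Gse1, Nrcam and Timp3 lie above 0.2.

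The limits cut through a continuous range. Just inside the limit of 0.4 lay the second Kiaa0408L probe set (0.402), Plxnd1 (0.405), Timp3 (0.405) and Klf1 (0.406), given as the smallest pairing. Just outside lay Pmp22, a membrane protein of myelin (0.397), the thymidine kinase Tk1 (0.384), Sertad2 (0.381) and the homeobox gene Prrx2 (0.380). For the level of 6, Rhd (6.09) and Bcl11a (6.39) were the dimmest members. The phospholipase Plcb1 (5.94) and the glutamate receptor Grik2 (5.85), with differences of 0.87 and 0.70, missed it.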

How the data were processed

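The deposited table gives a value per probe set for each of 4 one-colour Affymetrix rat arrays. The authors made these log2 values with GCRMA, which corrects background by probe sequence, normalizes between arrays and summarises probes, per the submitters' processing notes; its version and a genome build are not given in the sources used here. The values run from 2.07 to 16.13, which fits a log2 scale, and were not normalized again. Arrays give no depth, so their number limits precision. The medians over tested probe sets were 8.22 and 8.35 (mutant) and 8.24 and 8.33 (wild type). Symbols came from the platform annotation; all 39 members matched the RefSeq table.

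limma (3.58.1, R 4.3.3) fitted genotype to 18625 of 31042 probe sets, leaving out those under the 40th percentile of the mean (3.21), with Benjamini-Hochberg adjustment at 0.05. The fit was also run on simulated data with the same spread for every probe set, so its power on the real spreads was not tested. limma served only for genes outside the set. An exact permutation test of 2 arrays against 2 was not run, as it cannot reach 0.05. Each listed gene stood by its brightest tested probe set, and summed levels add 2 to the power of the value. Values are given for members by the size of the smallest pairing, the level, membership in 22 gene lists and nearness to the limits, and in lists for up to 2 genes with the largest change. The members and lists were chosen with earlier results of these data known; roles were assigned after the members were known. Alternatives covered scaling, pseudocount, limits, probe set choice, single arrays and a replicate block.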

Additional observations from a re-analysis of the deposited data

How the results depend on the processing

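The number of members moves with the limits more than with the scaling. A smallest pairing of 0.3, 0.5 or 0.6 gave 79, 18 or 7 genes in place of 39, and a mutant mean of at least 8 gave 16. With 1 array left out, which lowers the number of pairings, between 142 and 333 genes met the limits. All 39 members were among them, which the rule makes nearly certain, since no smallest pairing can fall when pairings are removed. Quantile normalization gave 37 genes (29 shared with the 39), median centring 36 (28 shared) and a pseudocount of 16 gave 28 (26 shared). The brightest probe set per gene kept 33 members, and the mean over a gene's probe sets kept 26. The median difference over the same 39 genes was 0.70 after quantile normalization and after median centring, 0.62 with the pseudocount, and 0.65 to 0.71 with 1 array left out. The sets chosen anew under other limits or probe set choices had medians from 0.58 (79 genes) to 0.83 (7 genes). limma called 0 probe sets in the reported fit, 2 after quantile normalization, 2 after median centring and 1 with a filter at the 60th percentile, all lower in the mutant.

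The labels give both genotypes a biological replicate 1 and a biological replicate 2 without saying that a number marks a shared litter or day. The replicate differences of the 2 genotypes correlated across 18625 probe sets (r = 0.43), which 2 pairs cannot settle. With the replicate block, using only same-numbered pairings, 93 genes met the limits, and limma with the block called 0 probe sets (1194 at an unadjusted p under 0.05). Each genotype has 2 arrays, which limits every value here.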

Other observations

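Fibroblast growth factor signalling patterns the front of the forebrain. Its list of ligands, receptors and feedback genes leaned higher in the mutant without holding a member. Of 17 tested genes 15 were higher and 2 lower, with a median difference of 0.17 and 0 passing in limma (2 at an unadjusted p under 0.05). RNA splicing and RNA-binding genes leaned the other way, with 10 of 33 higher and 23 lower and a median of -0.05. Mitochondrial and energy genes were higher in 7 and lower in 15 of 23 (median -0.03). Genes of the cytoskeleton (12 of 26 higher), of protein degradation (10 of 23), of the immediate early and stress response (8 of 17) and of diencephalon, midbrain and eye (4 of 8) had medians between -0.03 and -0.01. Of those 8 diencephalon, midbrain and eye genes, both mutant arrays lay above both wild-type arrays in 2 and below in 4. Over all tested genes the shares were 12.2% and 12.1%. In each of these lists limma passed 0 genes, with 0 to 2 at an unadjusted p under 0.05. None of them holds a member of the set, and 49.7% of 9840 tested genes had a higher mutant mean.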
